A study of Sus scrofa with 60 samples.

Results

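The liver of the newborn pig was examined for how far animals of the same age differed from each other. The members are the 15 arrays labelled 1 day post natum (1 dpn), out of 60 arrays in the series, and they were chosen by that label alone. All 60 pigs were German Landrace offspring of gilts fed a diet with adequate protein (AP) during pregnancy. Liver RNA of each animal was hybridised to 1 Affymetrix porcine array, on which a probe set is a group of short oligonucleotides that reads 1 transcript. The groups set beside the newborns are livers at 94 days post conceptionem (94 dpc, fetuses, n = 15), 28 dpn (n = 14) and 188 dpn (n = 16). Per the study's methods, parturition was induced with prostaglandin, the newborns were sib pairs balanced for sex and made of the lightest and the heaviest piglet, and 1 array of this stage failed quality control. The labels give neither litter, sex nor weight, so the spread was not divided among them and each animal was counted as 1 sample. P-values therefore treat sibs as independent.

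At birth the liver loses the placental supply of glucose and amino acids and is soon fed by colostrum and milk, which are rich in fat. It makes glucose and ketone bodies, secretes most plasma proteins, adjusts its own cholesterol synthesis to the sterol that arrives with food, and takes over the handling of foreign compounds. It has also just been the main site of blood cell formation in the fetus. Many genes of such pathways can be controlled from hour to hour. The genes for ribosomes and abundant plasma proteins are expressed at high levels.

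Levels are given as log2(intensity + 16), and the spread among animals as the standard deviation (SD) in log2 units. An SD of 1 means that a typical animal lay about a doubling away from the mean. Animals are numbered 1 to 15 in the order of their array labels, which carries no further meaning. The identity of the tissue was checked first. All 10 hepatocyte markers on the array lay above the array median, and their summed level ranged only from 18.52 to 19.14 among the newborns. None of the 9 skeletal muscle and 6 adipocyte markers did, and of 10 lymphocyte markers only CCL5 did. Of 3 gut epithelium markers 2 lay above the array median, with a summed level of the list from 9.51 to 12.76. The same held for 2 of 3 mesothelium markers, with 13.37 to 14.66. The part of such tissue in the samples was not tested. Of 9 pancreas markers only AMY2 did, and the defining markers INS, GCG and CPA1 had means of 4.93, 5.18 and 4.99, below the background of the array (the highest mean of a Tag control probe set was 6.29). The 8 macrophage markers all lay above the median, and their median SD was 0.35, beside 0.33 over all genes above the array median. Pairs of newborn arrays correlated at 0.904 to 0.949, and animal 6 had the lowest mean correlation with the others, 0.911.

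Among probe sets with a gene name, the brightest of the newborn liver were those of secreted proteins. ALB (albumin) led with a mean of 16.26 and ranged from 15.88 to 16.63 around a median of 16.26. Among the named ones it was followed by HP (haptoglobin, which binds free haemoglobin) at 16.20, APOA1 (the main protein of high density lipoprotein) at 16.07, ORM1 (orosomucoid) at 16.01, APOC3 at 15.98 and TF (transferrin, the iron carrier) at 15.95. Further down came SERPINA1 (the elastase inhibitor alpha-1-antitrypsin), GC (the vitamin D carrier), FGG and FGB (fibrinogen chains), AHSG, VTN and C3. AFP (alpha-fetoprotein, the albumin-like protein of fetal life) was still among them with 15.30 in the lowest animal, 15.54 in the median and 15.91 in the highest. Its mean was 7.19 at 28 dpn and 5.06 at 188 dpn. The ribosomal genes RPS2 and RPLP0, the ferritin genes FTL and FTH1, GAPDH and EF1ALPHA were also among the 30 brightest. Signals of different probe sets depend on their oligonucleotides, so this is an order of signal and not of molecules. Of the 50 brightest probe sets 34 carry 1 gene name, and 6 of the 16 without one ranked between HP and APOA1, with means of 16.08 to 16.20.

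The signals of these abundant transcripts were nearly alike in all newborns. Whether the range of the array limits differences at such levels was not tested. Of the genes named first above, animal 1 was lowest in ALB, HP, ORM1, APOC3 and TF, and animal 11 in APOA1. Over all probe sets above the array median animal 1 was the lowest in 4.36%. Among the 30 brightest genes the SD ran from 0.18 (FTL) to 0.37 (OAZ1). The median SD over all 11584 probe sets with a mean above the array median was 0.36, out of 23999 probe sets for transcripts. The SD was above 0.5 for 2371 probe sets (20.5%) and above 1 for 132 (1.14%).

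**Figure D1:**
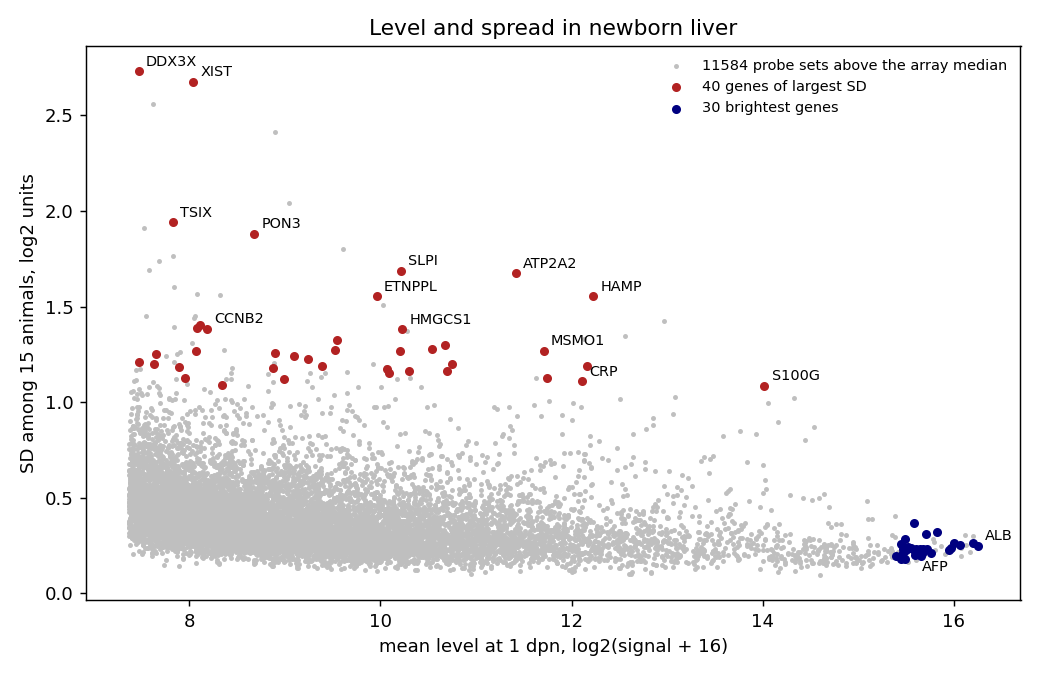
Mean level of each probe set in the 15 newborns (horizontal axis, log2(intensity + 16)) against its SD among them (vertical axis, log2 units). Grey points are the 11584 probe sets above the array median, blue points the 30 brightest genes, with SDs of 0.18 to 0.37, and red points the 40 genes of largest SD, from S100G at 1.09 to DDX3X at 2.73.

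The 100 probe sets of largest SD spanned 1.07 to 2.73, of which 57 have 1 gene name, and the next probe set outside this selection, of the metallothionein gene MT3, stood at 1.07 as well. Because the SD chose them, their SD is a description. In 8 of the 100 the SD fell by over 1.5 times when the animal farthest from the mean was left out, against 373 of all probe sets above the array median (3.22%). FBP2, a fructose bisphosphatase, was one of them: it was 5.07 in animal 4 and between 9.12 and 10.67 in the others, and its SD was 1.32 with and 0.49 without that animal. RSF1, a chromatin factor, was another, with 8.22 in animal 7, a median of 12.37, and an SD of 1.19 that became 0.50 without that animal. In the rest the SD did not rest on 1 animal to that degree.

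**Figure D2:**
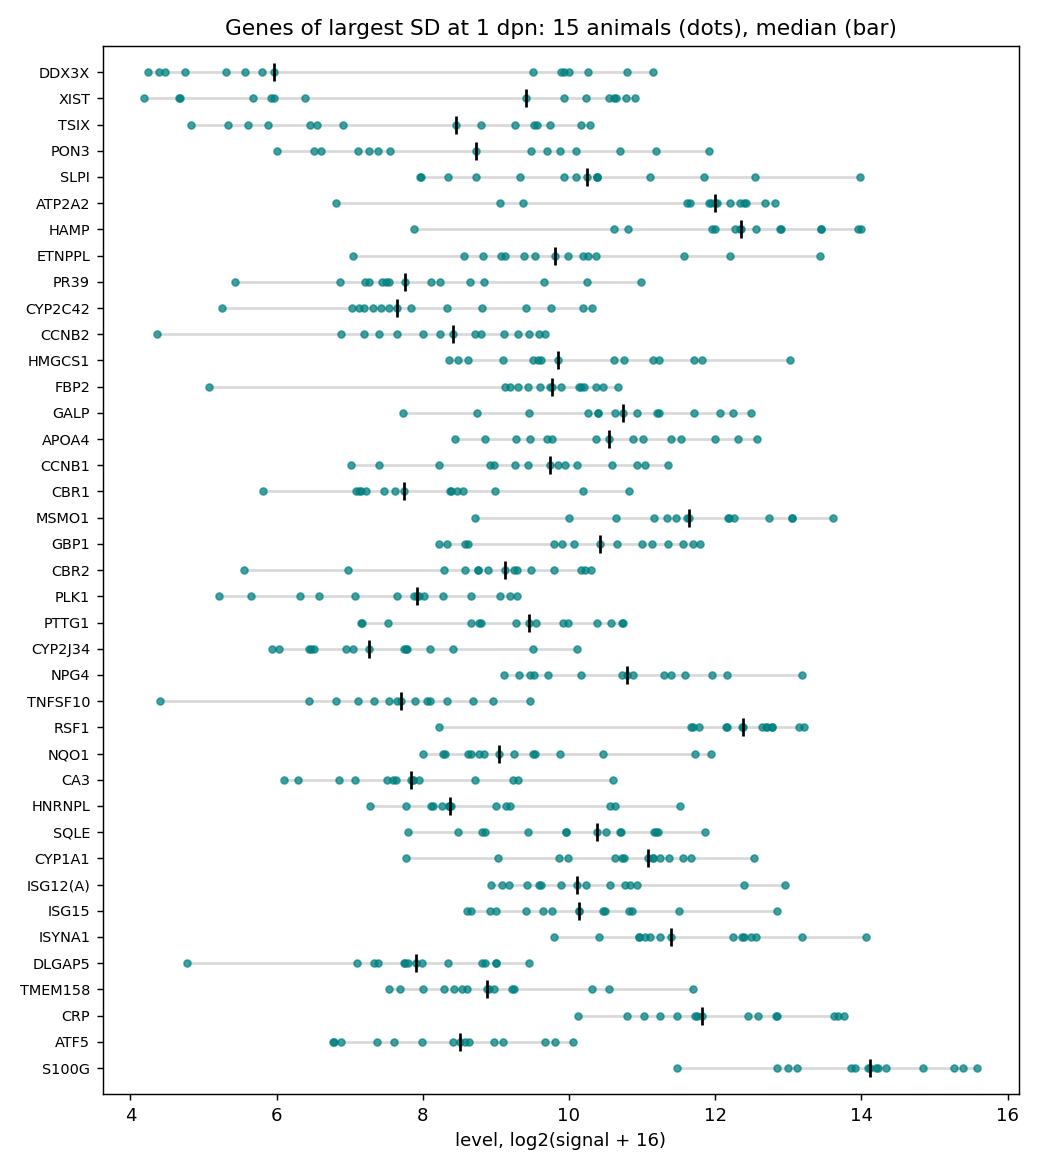
Levels of the genes of largest SD in the 15 newborns, each read by its brightest probe set, with log2(intensity + 16) on the horizontal axis, 1 dot per animal and a black bar at the median. DDX3X, XIST and TSIX split into a low and a high set, FBP2 and RSF1 each have 1 animal far below the rest, and most other genes are spread over their whole range.

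The widest of all came from probe sets of the sex chromosomes. XIST, the RNA that coats the inactive X chromosome, ranged from 4.19 to 10.91 around a median of 9.42. It was at most 6.39 in 7 animals and at least 9.42 in the other 8, with nothing between. TSIX, the antisense transcript of the same locus, was read by a probe set that split the same 8 animals from the same 7 (4.83, 8.45 and 10.29 as lowest, median and highest). The array annotation does not show whether its oligonucleotides separate the strands, so XIST and TSIX may share signal. A probe set that the study assigned to DDX3X, an X-linked RNA helicase with a closely related copy on the Y chromosome, went the other way. It was at most 5.97 in 8 animals and at least 9.51 in 7, and 0 of those 7 were among the 8 animals with high XIST. In the 8 animals with high XIST it thus lay below the background of the array, 6.29. Which of the copies this probe set reads was not tested. XIST was wide at the other ages too. Its SD was 2.68 here, 2.91 among the fetuses, 2.79 among the pigs of 28 dpn and 3.25 among those of 188 dpn.

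In all, 11 probe sets (0.095%) had a gap of over 1.5 log2 units with at least 3 animals on either side. TAF1D, a subunit of a factor for ribosomal RNA transcription, was one that split differently from XIST, with 5 animals at or below 6.81 and 10 at or above 9.97. ATP2A2, the calcium pump of the endoplasmic reticulum, was another. Its widest probe set was 6.82 in animal 10, at most 9.37 in 2 further animals and at least 11.62 in the remaining 12. The other 3 probe sets of ATP2A2 did not share this pattern: their SDs were 0.27, 0.38 and 0.32, so the split belongs to 1 probe set and not to the gene. Another probe set of S100G (SD 0.48) correlated at -0.35 with the wide one. Those of RSF1 (-0.27 and 0.46) and PR39 (-0.19) had means below the array median. Other probe sets of MSMO1 correlated at 0.89 and -0.03, and those of NPG4 at 0.49 to 0.99. Those of TSIX, GBP1, CYP2C42, CA3 and DLGAP5 correlated at 0.68 or more.

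Among hepatic genes with single functions, PON3 (paraoxonase 3, a lactone hydrolase bound to lipoprotein) was the widest, with 6.01 in the lowest animal, 8.73 in the median animal and 11.92 in the highest, a 60.1-fold range. It was 5.14 ± 0.64 (SD, n = 15) in the fetuses and 10.26 ± 1.87 (n = 14) at 28 dpn. The lowest newborn value and the fetal mean of PON3 lay below the array background of 6.29, so the fold range has no firm lower end. The same holds for other values under 6.29 given here, such as the lowest of FBP2, CYP2C42, CCNB2 and PR39. Such values cannot be told apart from background. ETNPPL, which breaks down phosphoethanolamine, ran from 7.05 over 9.81 to 13.44, an 83.8-fold range topped by animal 11, against a fetal mean of 5.23. SLPI, an antiprotease of mucosal defence, ran from 7.96 over 10.25 to 13.99 in animal 6. HAMP (hepcidin, the hormone that limits iron release) was 7.88 in animal 15, 12.35 in the median and 14.00 in animal 4. Without animal 15 its SD became 1.02 instead of 1.55. CRP (C-reactive protein) ranged from 10.12 to 13.76 with a median of 11.82, at a fetal mean of 5.78. APOA4, an apolipoprotein of intestine and liver that rises with fat feeding, ranged from 8.44 to 12.57 around 10.54. SDS, the serine dehydratase of gluconeogenesis from amino acids, had a mean below the array median and so fell outside the selection. It was 6.48 in the median animal and 11.58 in animal 11.

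Lists of genes with a shared function differed in how far they varied. Over the 4982 genes above the array median, the median SD was 0.33 and 499 genes lay above 0.57, the 90th percentile. Of 15 cholesterol synthesis genes 11 were above that value (list median 0.83), of 23 cell division genes 17 (0.82), of 18 interferon response genes 11 (0.77), of 29 xenobiotic metabolism genes 14 (0.56), of 7 major histocompatibility complex (MHC) class II genes 6 (0.61) and of 22 amino acid and urea genes 9 (0.53). At the other end were the 55 cytosolic ribosomal proteins with 0 such genes (0.20), 43 plasma proteins with 4 (0.25) and 58 oxidative phosphorylation genes with 2 (0.26). All 5 neutrophil markers above the median were wide (1.07). In whole liver, fewer cells of a kind and less RNA per cell cannot be told apart. The narrowest ribosomal gene was RPL23 with an SD of 0.095. Lists and members are given as descriptions, since the SD is what set them apart.

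In the xenobiotic list the widest members were CYP2C42 (5.26, 7.65 and 10.31 as lowest, median and highest), NQO1 (8.01, 9.05 and 11.95), CYP1A1 (7.77, 11.08 and 12.53), GSTA1 (11.85, 14.59 and 15.17) and GSTM3 (6.91, 9.25 and 11.14). CYP2C42 and CYP1A1 encode cytochromes that oxidise drugs and aromatic compounds, NQO1 reduces quinones, and the GST enzymes attach glutathione. Different animals led in each: animal 6 had the highest CYP2C42, animal 1 NQO1, animal 14 CYP1A1 and animal 11 GSTA1 and GSTM3. GSTO1, another glutathione transferase, was steady (SD 0.20). In the lists of glucose and fat metabolism, 6 of 15 fat synthesis genes were above the 90th percentile (list median 0.47), 6 of 30 fat oxidation genes (0.35) and 5 of 17 gluconeogenesis and glycogen genes (0.37). PPP1R3B, which directs phosphatase to glycogen, ranged from 8.30 to 12.05, IGFBP1, an insulin-responsive binding protein, from 12.58 to 15.17, and TAT, a glucocorticoid-responsive tyrosine transaminase, from 12.36 to 14.79. PDK4, which closes the entry of pyruvate into the mitochondrial cycle when fat is burnt, ranged from 7.91 to 11.35, and ANGPTL4, a lipase inhibitor, had a median of 8.96 and a highest value of 10.63. The enzymes of beta-oxidation themselves could be narrow, as ACAA1 (SD 0.18) and ACADS (SD 0.18) were. In fat synthesis, with each gene read by its brightest probe set alone, FADS2 (7.80 to 11.33), PLIN2 (11.25 to 14.16), SCD (11.05 to 13.57) and FASN (9.37 to 11.91) were the widest above the array median.

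Which of the wide transcripts moved together was examined by joining the 100 probe sets of largest SD by average linkage on the correlation across animals, down to a mean correlation of 0.65. This gave 9 clusters of 3 or more that held 48 probe sets. The largest held 13 probe sets with CCNB1, CCNB2, DLGAP5, PLK1 and PTTG1, all genes of mitosis. The next held HMGCS1, SQLE and MSMO1, enzymes of cholesterol synthesis, another ISG15, MX1 and ISG12(A), which interferon induces, and a further one PR39, LTF and 4 probe sets of NPG4, which encode granule proteins of neutrophils. XIST and TSIX formed one, GBP1 with LOC100524999 another, and GALP, RGCC and S100G one more, while 2 clusters had no probe set with 1 gene name. The correlations that built the clusters carry no p-value.

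To test how far such links reach, every probe set above the array median in at least 50% of the newborns was regressed on the level of 1 anchor gene with limma, and p-values were adjusted by Benjamini-Hochberg over all of them. The anchor of each of 8 lists was its member of largest SD. CCNB2, PR39 and ISG15 were added as anchors after the clusters had been seen, so that their ties to fellow cluster members are not independent of the choice. A slope is the change in log2 units for each log2 unit of the anchor.

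Cholesterol synthesis was the only planned list with members that passed with their anchor. The anchor HMGCS1, the cytosolic synthase that makes the precursor of mevalonate, was 8.36 in animal 4, 9.85 in the median and 13.02 in animal 2, a 25.2-fold range. With HMGCS1 13 of 11839 probe sets varied in the same direction (0.11%) and 1 in the opposite direction (0.00845%), and of the 14 other list members tested 6 varied in the same direction and 0 in the opposite one. Among them were SQLE, squalene epoxidase (slope 0.79 ± 0.08 (SE), adjusted p = 6.0e-05), CYP51, which removes a methyl group from lanosterol (0.64 ± 0.08), MSMO1, the sterol methyl oxidase (0.77 ± 0.12), ACAT2, which condenses acetyl-CoA (0.50 ± 0.09), and FDFT1, squalene synthase (0.44 ± 0.08, adjusted p = 0.030, limma). SC5D had a slope of 0.48 ± 0.09 at an adjusted p of 0.052 and FDPS one of 0.42 ± 0.11 at 0.35. SREBF2, the transcription factor that switches on this pathway at low sterol, had a slope of 0.15 ± 0.06 (adjusted p = 0.87). INSIG1, which holds that factor back in the endoplasmic reticulum, was wide (10.35 to 13.53) and yet had a slope of 0.29 ± 0.16 (adjusted p = 0.96, limma). The median slope of the list was 0.43, beside -0.0038 over all probe sets. The median difference of the anchor and the called members from their newborn mean was 1.79 in animal 2, 1.23 in animal 5 and 1.16 in animal 1, and it was lowest at -1.86 in animal 4. Without animals 2 and 5, those farthest from the median of HMGCS1, 4 list members were called instead of 6 and 6 probe sets in all instead of 14. With no filter on low values 3 list members were called. IFIT2, which interferon induces, was the only named gene that varied against HMGCS1 (slope -0.40 ± 0.07, adjusted p = 0.030, limma).

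Cell division genes formed the largest set that moved as one. CCNB2, a B-type cyclin that drives entry into mitosis, was 4.37 in animal 4, 8.41 in the median and 9.67 in animal 11. With CCNB2 125 of 11839 probe sets varied in the same direction (1.06%) and 2 in the opposite one (0.0169%), and 17 of the 22 other list members tested varied in the same direction and 0 in the opposite one. They were led by CCNB1 (slope 0.85 ± 0.09), the mitotic kinase PLK1 (0.83 ± 0.09), CENPF (0.58 ± 0.07), the ubiquitin enzyme UBE2C (0.69 ± 0.08) and securin PTTG1 (0.78 ± 0.10, adjusted p = 0.00029, limma), and included the genes of DNA synthesis TYMS, RRM2 and PCNA with slopes of 0.29, 0.48 and 0.23. Outside the list DLGAP5 (0.79 ± 0.06), CDCA3 (0.69 ± 0.07) and MELK (0.52 ± 0.06) had the smallest p-values. The replication licensing genes MCM2, MCM3, MCM4 and MCM5 had slopes of 0.30, 0.30, 0.26 and 0.31 and did not pass (adjusted p of 0.064 or more, limma). Animals 11, 9, 12 and 15 had the highest levels (median differences from the newborn mean of 1.09, 1.04, 0.93 and 0.82) and animals 4, 2 and 3 the lowest (-1.67, -1.08 and -0.98). Without animals 4 and 2, 42 probe sets and 11 list members were called instead of 127 and 17. Of 9 genes of the forming red cell tested 0 were called with CCNB2, and the summed level of that list ranged from 13.18 to 14.04. Of 3 megakaryocyte markers tested 1 was called in the same direction as CCNB2, with a summed level of the list from 9.24 to 10.44. The part of these cells in the cell division values was not tested.

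The interferon list was led in spread by GBP1, a guanylate binding protein induced mainly by interferon gamma, which ranged from 8.22 in animal 2 over 10.42 to 11.79 in animal 8. With GBP1 as the anchor 0 of the 18 other members tested passed, while 2 of 11837 probe sets varied with it (0.0169%), among them FAM26F, and 2 against it (0.0169%), among them ZFX. At an unadjusted p below 0.05 in limma there were 12 of these 18 members, against 646 of the 11837 probe sets. The median slope of the list on GBP1 was 0.34, beside -0.0012 over all probe sets. ISG15, an antiviral protein that is joined to other proteins, was 8.61 in animal 1, 10.14 in the median and 12.84 in animal 15. With ISG15 12 of 11839 probe sets varied in the same direction (0.101%) and 1 in the opposite one (0.00845%), and 6 of the 18 other members did so in the same direction. These were MX1 (slope 0.88 ± 0.08), IFI44L (0.64 ± 0.08), USP18 (0.77 ± 0.09), RSAD2 (0.66 ± 0.09), IFIT3 (0.45 ± 0.06) and IFIT1 (0.73 ± 0.10, adjusted p = 0.0022, limma). At an unadjusted p below 0.05 in limma there were 15 of the 18 members, against 941 of the 11839 probe sets. The median slope of the list on ISG15 was 0.45, beside 0.0034 over all probe sets. The members other than these 6 did not pass after adjustment. They included further interferon targets such as IFIT2 (0.46 ± 0.09, adjusted p = 0.10), DDX58 (0.31 ± 0.09, adjusted p = 0.41), GBP1 (0.55 ± 0.23, adjusted p = 0.55), OAS1 (0.25 ± 0.16, adjusted p = 0.78) and IRF1 (0.10 ± 0.09, adjusted p = 0.87, limma). ISG12(A), another interferon-induced gene outside the list, had the smallest p-value (slope 0.97 ± 0.08, adjusted p = 2.7e-06, limma). Animal 15 stood highest with a median difference of 1.93 over the 7 genes, before animal 14 with 0.91, and animal 10 lowest with -1.22. Without animals 15 and 1, 3 probe sets and 2 list members were called instead of 13 and 6.

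A further cluster was that of neutrophil granule genes. PR39, an antimicrobial cathelicidin, was 5.43 in animal 3, 7.76 in the median and 10.99 in animal 4. NPG4, a protegrin, which is likewise a cathelicidin, ranged from 9.11 to 13.18 and LTF, lactoferrin, from 5.80 to 9.89, both highest in animal 4. With PR39 3 of 11839 probe sets varied in the same direction (0.0253%), and 1 of the 5 list members tested, NPG4, passed (slope 0.72 ± 0.11, adjusted p = 0.023, limma). Genes of the cathelicidin family are alike in sequence and their probe sets may share signal. LTF (0.57 ± 0.12), the calgranulins S100A9 (0.47 ± 0.10) and S100A8 (0.31 ± 0.11), and the elastase ELANE (0.30 ± 0.09) had positive slopes with adjusted p-values of 0.55 or more. Animal 4 had the highest median difference over the group, 1.99, and animals 11 and 8 the lowest, -1.06 and -0.94. Animal 4 was also the lowest in cholesterol synthesis and cell division, and the part of its neutrophil RNA in those values was not tested. Without animals 4 and 12 none of these calls remained. The mean of PR39 was 10.61 in the fetuses, higher than in the newborns, and 6.86 at 28 dpn.

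**Figure D3:**
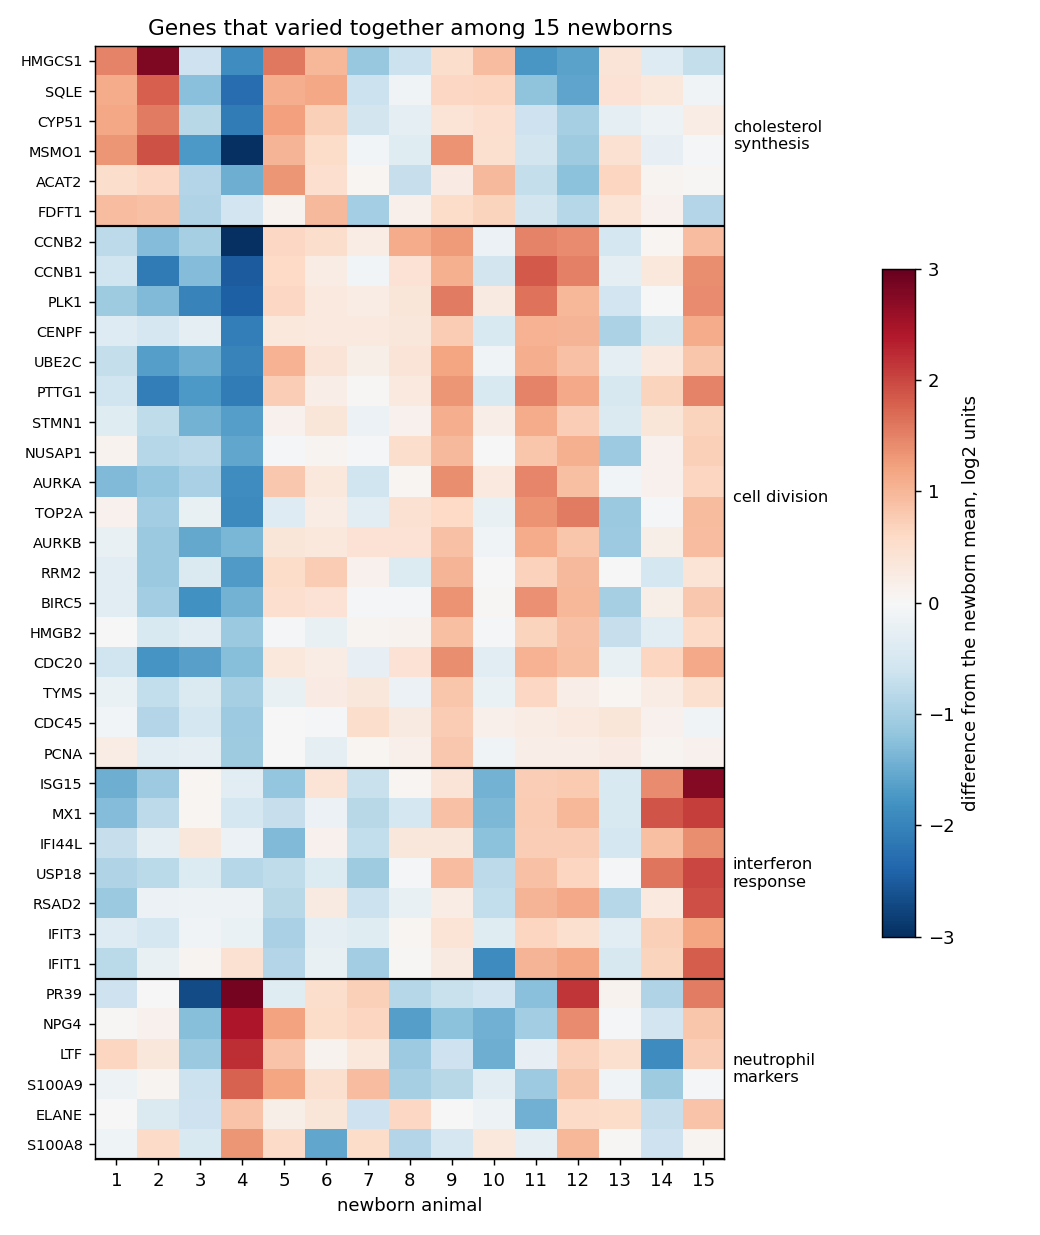
Difference of each gene from its mean over the newborns (colour, log2 units, red above and blue below the mean) for the 15 animals (columns). Rows are the anchors HMGCS1, CCNB2, ISG15 and PR39 with list members called with the first 3 and all neutrophil markers tested, and the colour scale ends at 3 in either direction. Animal 2 is highest for cholesterol synthesis, animal 15 for the interferon genes, and animal 4 is lowest in the upper 2 groups and highest in the neutrophil markers.

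The remaining anchors gathered few transcripts. PDK4 varied with 7 of 11838 probe sets in the same direction (0.0591%), among them TNFSF10, a death ligand (slope 1.03 ± 0.16), MPDZ and USP9X, but 0 passed after each array was centred on its median. PPP1R3B varied with 2 probe sets (0.0169%), one of them MID1IP1, and against 1 (0.00845%), FST (follistatin, slope -0.63 ± 0.10, adjusted p = 0.040, limma). FADS2 varied with 1 (0.00845%). At an unadjusted p below 0.05 PDK4 had 2099 probe sets, the most of the 11 anchors. HAMP, AHSP and CYP2C42 had 0 of 11839 each, with 572, 288 and 802 probe sets at an unadjusted p below 0.05 in limma. The members of the lists of fat synthesis, fat oxidation, gluconeogenesis, acute phase, erythroid and xenobiotic genes did not pass with their anchors (0 of 14, 29, 16, 22, 8 and 27 tested). A p-value that misses the threshold does not show that the members vary independently.

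Measures of array quality were set against the 11 anchors, the first principal component of the newborns (22.8% of the variance) and the position on the developmental axis described below. The measures were the ratios of 3' to 5' signal of the actin and GAPDH controls, the 18S control and the array median, over 52 pairs. None passed after adjustment (two-sided permutation tests, lowest adjusted p of 0.65 for Pearson's r and 0.81 for Spearman's rho). The strongest was PDK4 with the array median (r = 0.60, permutation p = 0.017, adjusted p = 0.65, and rho = 0.60, permutation p = 0.020, adjusted p = 0.81, n = 15, and r = 0.53 without the 2 animals farthest from the median). The GAPDH ratio had r = 0.52 with the first principal component (permutation p = 0.044, adjusted p = 0.65). With the position on the axis it had r = -0.52 (permutation p = 0.048, adjusted p = 0.65). The part of the array median in the PDK4 calls was not tested beyond the centring above. Quality also differed between stages. The log2 actin ratio was 1.14 to 2.23 in the newborns and 1.54 to 2.84 at 94 dpc. It was 2.85 to 4.41 at 28 dpn and 3.27 to 4.62 at 188 dpn. Mean correlations within a stage were 0.911 to 0.934 in the newborns and 0.933 to 0.945 at 94 dpc. They were 0.938 to 0.957 at 28 dpn and 0.935 to 0.954 at 188 dpn. The part of quality in the comparisons of spread below was not tested beyond centring, quantile normalization and left-out arrays.

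Whether newborns differed more than animals of other ages was tested on absolute deviations from the stage mean with limma. The probe sets tested were above the array median in at least 50% of the animals of both stages. By the study's account, sampling differed between stages as well as age. The fetuses were also the smallest and the heaviest of a litter, but came from a separate experiment with Caesarean section. The older pigs were chosen near the middle for growth and had fasted overnight. The part of sampling and feeding in the differences of spread was not tested and cannot be told apart from that of age. Against the fetuses at 94 dpc, 536 of 10970 probe sets were wider at 1 dpn (4.89%) and 18 narrower (0.164%), and the SD of 80.4% of the probe sets was larger in the newborns (median 0.35 against 0.26). Of the 15 cholesterol synthesis genes 8 were wider, among them ACAT2 (SD 0.83 against 0.14, adjusted p = 0.0058), FDPS (0.83 against 0.13), CYP51 (0.97 against 0.18), FDFT1 (0.73 against 0.16), SQLE (1.17 against 0.23), MSMO1 (1.27 against 0.25) and HMGCS1 (1.38 against 0.36, adjusted p = 0.019, limma). In each of these 8 genes the fetal mean was the higher one, as with MSMO1 at 13.64 ± 0.25 (SD, n = 15), where the newborns had a mean of 11.71. Of 22 cell division genes 5 were wider, among them CCNB2 (1.38 against 0.40) and PTTG1 (1.23 against 0.38), of 17 interferon genes 2, IFI44L and TAP1, of 19 amino acid and urea genes 4, FAH, PSAT1, PHGDH and ALDH4A1, and of 55 ribosomal proteins 0. PEG10, an imprinted gene of retroviral origin with high fetal and placental expression (0.94 against 0.14), SUOX, sulfite oxidase (0.72 against 0.14), and SCD, the stearoyl-CoA desaturase (0.73 against 0.23), were also wider. The mean of PEG10 was 13.07 at 1 dpn and 15.30 at 94 dpc, and that of SUOX 10.64 and 9.33. Whether the range of the array narrows the spread at the highest levels was not tested. HMGCS1, SQLE, MSMO1, CCNB2 and PTTG1 were also among the genes picked above for their large SD in the newborns. Genes picked in this way tend to look wider than at another stage. Their differences are therefore not independent of that choice, although the test covered all probe sets that passed the filter.

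Narrower in the newborns than in the fetuses were 18 probe sets. FOS, an immediate early gene, had an SD of 0.50 against 1.87, PCK1, the key enzyme of gluconeogenesis, 0.34 against 1.28, CYP2E1, an ethanol-oxidising cytochrome, 0.49 against 1.59, and CREM, a cAMP-responsive factor, 0.28 against 0.97 (adjusted p = 0.019, limma). The mean of PCK1 was 12.05 at 94 dpc and 13.64 at 1 dpn, and that of CYP2E1 8.93 and 14.52.

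The newborns were less distinct from older pigs. Against 28 dpn 10 of 10884 probe sets were wider at 1 dpn (0.0919%) and 1 narrower (0.00919%), with 1500 and 182 at an unadjusted p below 0.05. The wider ones with a gene name were CYP3A39 (0.79 against 0.18), SSBP4, GTPBP1 and ADCK5, and CYP3A22, another cytochrome, was narrower (0.56 against 1.81, adjusted p = 0.033, limma). The mean of CYP3A39 was 11.00 at 1 dpn and 15.19 at 28 dpn. Those of SSBP4, GTPBP1 and ADCK5 at 28 dpn were 8.51, 8.26 and 8.29. None of the cholesterol, interferon or cell division genes passed here: HMGCS1 had an SD of 1.38 against 1.38 and ISG15 one of 1.15 against 1.28 (adjusted p of 0.89 and 0.73, limma). Against 188 dpn 87 of 10714 probe sets were wider (0.812%) and 12 narrower (0.112%). The wider ones included GSTA1 (1.00 against 0.16, adjusted p = 0.0011), MAT2A, which makes the methyl donor S-adenosylmethionine (0.81 against 0.23), HRG, a histidine-rich plasma protein (0.83 against 0.18), the interferon genes IRF1 and USP18, and CRP (1.11 against 0.38, adjusted p = 0.045, limma). CRP was likewise among the genes picked for their large newborn SD, so its difference is not independent of that choice. No probe set of the 10052 tested in all 3 comparisons was wider at 1 dpn in all of them. The calls depend on how a deviation is measured. With deviations from the stage median instead of the mean, 0 passed in any of the 3 comparisons in limma (2110, 1040 and 899 wider at an unadjusted p below 0.05), although the ratios of the SDs are the same.

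**Figure D4:**
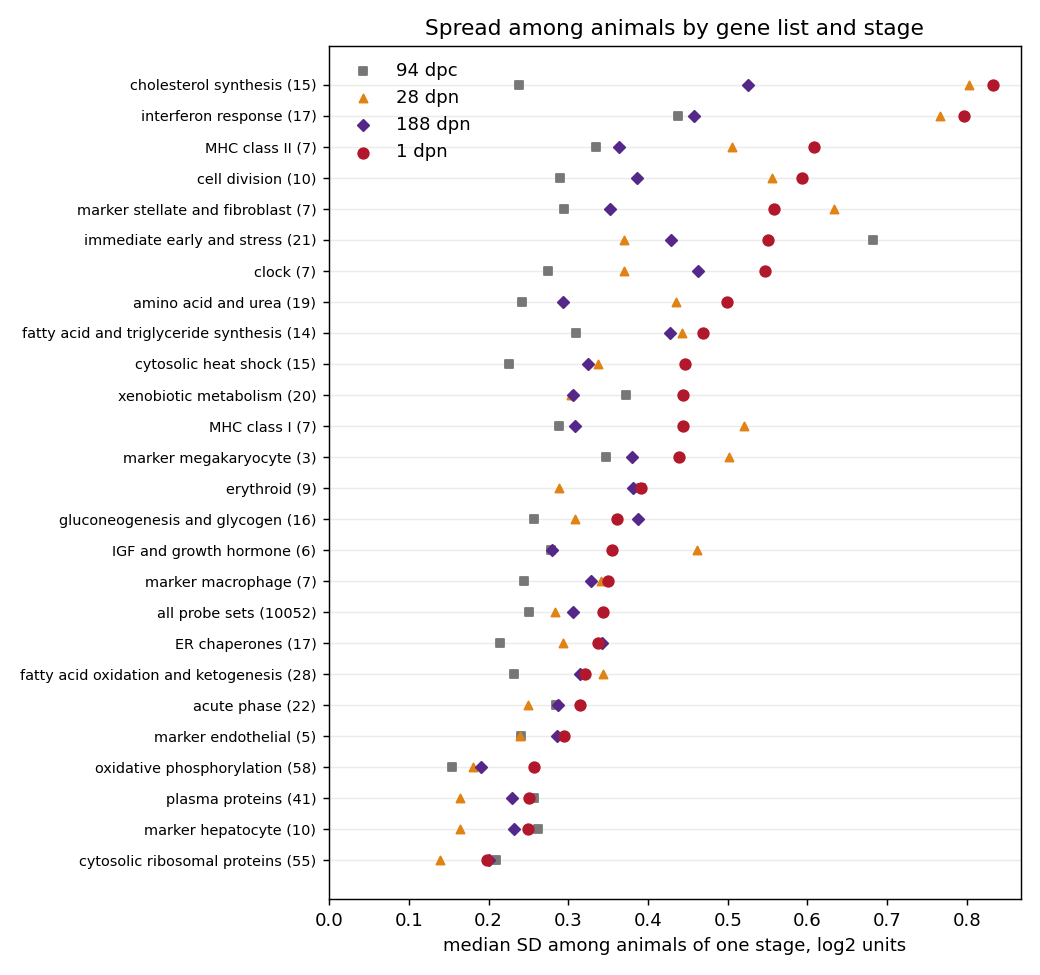
Median SD among animals of the genes of a list (horizontal axis, log2 units) at 94 dpc, 1 dpn, 28 dpn and 188 dpn, over the members above the array median in at least 50% of the animals of every stage (their number in parentheses). Cholesterol synthesis has 0.24, 0.83, 0.80 and 0.53 at the 4 stages, and cytosolic ribosomal proteins 0.21, 0.20, 0.14 and 0.20.

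Of the 100 widest newborn probe sets, 42 were also among the widest 5% of the fetuses, 62 of the animals of 28 dpn and 49 of those of 188 dpn, where 3.73%, 3.74% and 3.50% of all newborn probe sets above the array median were. Only probe sets with a mean above the array median of the other stage could be counted there (73, 82 and 74 of the 100). By this count 16 were among the widest in all the other stages and 22 in none, and the 22 include genes that were wide at a low level elsewhere, such as S100G with an SD of 1.70 at 28 dpn and CYP2C42 with one of 1.46 at 94 dpc.

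The animals also differed as a whole. On an axis drawn through the stage means, with the fetuses of 94 dpc at 0 and the pigs of 28 dpn at 1, the newborns lay between 0.35 (animal 3) and 0.57 (animal 9) with a median of 0.45 and an SD of 0.071. The fetuses had an SD of 0.040 and the pigs of 28 dpn one of 0.060 on it, and both helped to define it, which the newborns did not. No newborn overlapped the fetuses, whose highest animal was at 0.079, or the pigs of 28 dpn, whose lowest was at 0.91. The part of the GAPDH ratio in the newborn positions was not tested beyond the correlation above. The extremes of the wide genes were shared among the animals. Among the 40 widest named genes animal 4 was lowest in 10 and animal 2 in 7, animal 11 was highest in 6 and animals 2, 6 and 14 in 5 each. Over all probe sets above the array median animal 3 was most often the lowest (11.0%) and the highest (12.3%).

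**Figure D5:**
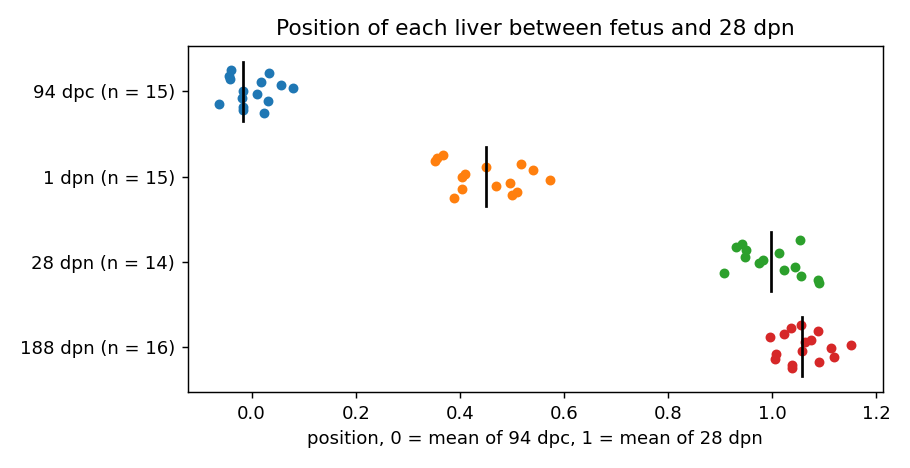
Position of each liver (1 dot per animal, black bar at the median) on the axis through the stage means, where 0 is the mean of 94 dpc and 1 the mean of 28 dpn. The 15 newborns lie between 0.35 and 0.57, apart from the fetuses and from the pigs of 28 dpn, and the pigs of 188 dpn lie between 1.00 and 1.15.

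Transcripts that the study measured by quantitative PCR had the following levels on the newborn arrays. PPARGC1A, a coactivator of mitochondrial and gluconeogenic genes, ranged from 7.62 over 8.24 to 9.76, and PRKAA2, a catalytic subunit of the energy sensor AMPK, from 6.19 over 7.07 to 7.64. The respiratory chain genes NDUFA4, NDUFS7 and NDUFS8 were steady, with SDs of 0.25, 0.29 and 0.33. DHCR7, the last enzyme of cholesterol synthesis, had an SD of 0.51. RPL10, which the study used as a reference gene, had one of 0.23.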

How the data were processed

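The authors deposited 1 linear intensity per probe set and array, and GCOS 1.1.1 is the software given in the submitters' processing notes. The 2% trimmed mean of every array lay between 500.1 and 500.2, so arrays share 1 scale. The study's own comparisons used GCRMA values, which were not used here. Intensities were raised by 16 and taken to log2. Of 24123 probe sets 124 controls were left out. Names come from the platform annotation (1 gene for 10069 probe sets, several for 198, none for 13732), and the study named 26 more. A gene read by more than 1 probe set was taken from the brightest over all 60 arrays. The number of arrays limits the precision. No 2 arrays held identical values.

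Tests used limma 3.58.1 in R 4.3.3, tested on simulated data first, and permutation tests of 100000 draws with numpy 2.4.6 in Python 3.11.15. A call is a two-sided adjusted p below 0.05. The members, tests and lists were chosen with earlier results of these data known. Named genes are the 30 brightest, the 40 of largest SD, up to 5 widest and 2 narrowest members of each list, the anchors with up to 6 genes tied most strongly in each direction, up to 10 genes of smallest p per stage comparison and direction, called list members, and those measured by quantitative PCR. MT3, TAF1D and the list members given for a missed call were chosen after their values were seen. Alternatives were other pseudocounts, centring, quantile normalization, other filters, deviations from the median, an actin covariate and left-out animals. The planned description of promoter motifs was not made. The values of 1 gene are not reported here, though counts over its list include it.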

Additional observations from a re-analysis of the deposited data

How the results depend on the processing

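At least 49 of the 50 brightest probe sets were shared under centring and quantile normalization, whereas counts of calls moved. An SD above 1 was found for 132 probe sets, for 202 with a pseudocount of 1, 79 with 64, and 55 when each SD left out the farthest animal. By the median absolute deviation 50 of the 100 widest were shared. In limma on deviations from the stage median, 0 were wider and 0 narrower than at 94 dpc, 28 dpn or 188 dpn. Without a filter 76, 44 and 93 were narrower and, against 28 and 188 dpn, 294 and 455 wider, and with the filter in at least 1 stage 32, 18 and 38 narrower and 35 and 178 wider. Against 28 dpn wider and narrower calls were 5 and 2 after centring, 56 and 8 after quantile normalization, 4 and 0 when the least correlated array of every stage was left out, and 44 and 8 without probe sets that rest on 1 animal (chosen after seeing the data), with 3 narrower at a pseudocount of 64. Against 188 dpn they were 54 and 5 after centring and 267 and 24 after quantile normalization, with 26 narrower without those that rest on 1 animal.

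Without the 2 animals farthest from the anchor's median, calls fell to 6 (HMGCS1), 0 (FADS2), 0 (PDK4), 1 (PPP1R3B), 0 (GBP1), 42 (CCNB2), 0 (PR39) and 3 (ISG15). Without a filter they were 6 (HMGCS1), 1 (PDK4), 1 (GBP1), 0 (PR39) and 8 (ISG15). With the actin ratio as a covariate they were 0 (FADS2), 1 (PPP1R3B), 9 (GBP1) and 8 (ISG15). PDK4 had 0 after centring, 0 after quantile normalization, 13 at a pseudocount of 64 and 11 without the array of lowest correlation. PPP1R3B had 1 after quantile normalization and 1 without that array, GBP1 2 under centring, 2 under quantile normalization and 2 without that array, and HAMP 1 after centring. NPG4 was also lost to PR39 without that array. On the axis to 188 dpn the newborn median was 0.368. The causes were not tested, beyond the different numbers of probe sets or animals. Called list members became 3 for HMGCS1 and 0 for PR39 without a filter, and 1 for GBP1 with the actin ratio. Of the comparisons of a total or a summary value with an alternative, the other 82 stayed within their limits, as did 77 of those for list members and the median SD. No paired analysis was possible because the labels number the animals through the whole series, so that stages share no replicate number.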
